A study of Rattus norvegicus with 4 samples.

Results

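Transporters that carry amino acids and related transmitters across membranes were followed in cultured oligodendrocyte precursor cells (OPCs) of the rat, from which the myelin-forming cells of the brain develop, after a microRNA was raised in them. The genes were chosen by symbol, as those starting with Slc1a, Slc3a, Slc6a, Slc7a, Slc36a, Slc38a or Slc43a, without the astrocyte glutamate transporters Slc1a2 and Slc1a3. The scanner files hold accessions and no gene names, so symbols were read from the RefSeq table of the GRCr8 assembly. It named 58 such genes on the array, with 74 probes. Of these, 41 genes had a probe well above background on at least 2 of the 4 arrays, and the brightest such probe stood for each gene. They are 41 of 23155 features tested. No probe could be given the symbol Slc7a1, Slc6a16, Slc38a10 or Slc38a11, so those genes were not read. The prefix also takes in Slc7a6os, named for lying opposite Slc7a6, which is not a transporter gene.

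The cells came from cortex of rats at postnatal day 2 and grew for 3 days with bFGF and PDGF. In the miR-125a-3p group (2 samples) they received a mimic of that microRNA at 50 nM with Lipofectamine RNAiMax, and in the miR-neg group (2 samples) a negative control RNA in the same way. Total RNA was taken 48 h later, 100 ng of it was labelled with Cy3, and each sample was read on 1 array. The labels do not say which animals or cultures the samples of a group came from, so the p-values cover no more than the scatter among these samples, and that scatter may be technical.

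Amino acid transporters supply protein synthesis, glutathione synthesis and the amino acid signals that reach mTORC1, and the same families clear glutamate, GABA and glycine from the extracellular space. Most members of the Slc7 light chain group reach the cell surface as pairs with a heavy chain of the Slc3 group. Many of these genes are transcribed more when amino acids run short, through ATF4 and the amino acid response elements it binds. The agent of the experiment is shown here as its mature RNA, from RefSeq (GRCr8, chr1:67350727-67350748, + strand), with the seed, bases 2 to 8, in capitals.
miR-125a-3p: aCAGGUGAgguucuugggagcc

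In limma with Benjamini-Hochberg adjustment over all features, 0 of the 41 genes passed an adjusted p of 0.05, where 0.687% of all features did (0.38% higher and 0.307% lower). At an unadjusted p under 0.05 there were 10 of 41 genes (24.4%), 6 higher and 4 lower after the mimic, against 19.5% of all features (10.5% higher and 8.97% lower). The 2 groups of arrays did not overlap for 23 genes (56.1%), against 52.9% of all features. Differences lay above 0 for 25 genes and below 0 for 16, where 52.5% of all features lay above 0. The median difference, mimic minus control, was 0.08 on the log2 scale over the 41 genes and 0.01 over all features. The median size of a difference was 0.19 for these genes and 0.15 for all features. The arrays of 1 group differed from each other by a median of 0.09 (miR-125a-3p) and 0.14 (miR-neg) for these genes. The shares of the transporters were thus near those of the whole array, with the widest gap in the share above 0, at 61.0% against 52.5%.

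For 34 of the 41 genes the 95% interval of the difference lay between -1 and 1 on the log2 scale, so a change of 2-fold or more lay outside it, and for 17 it lay between -0.5 and 0.5. The other 7 genes had wider intervals, among them 5 of the 6 that were well above background on 2 arrays, where standard errors ran from 0.17 to 0.73, against 0.07 to 0.42 for the 35 well above background on all 4 arrays.

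**Figure D1:**
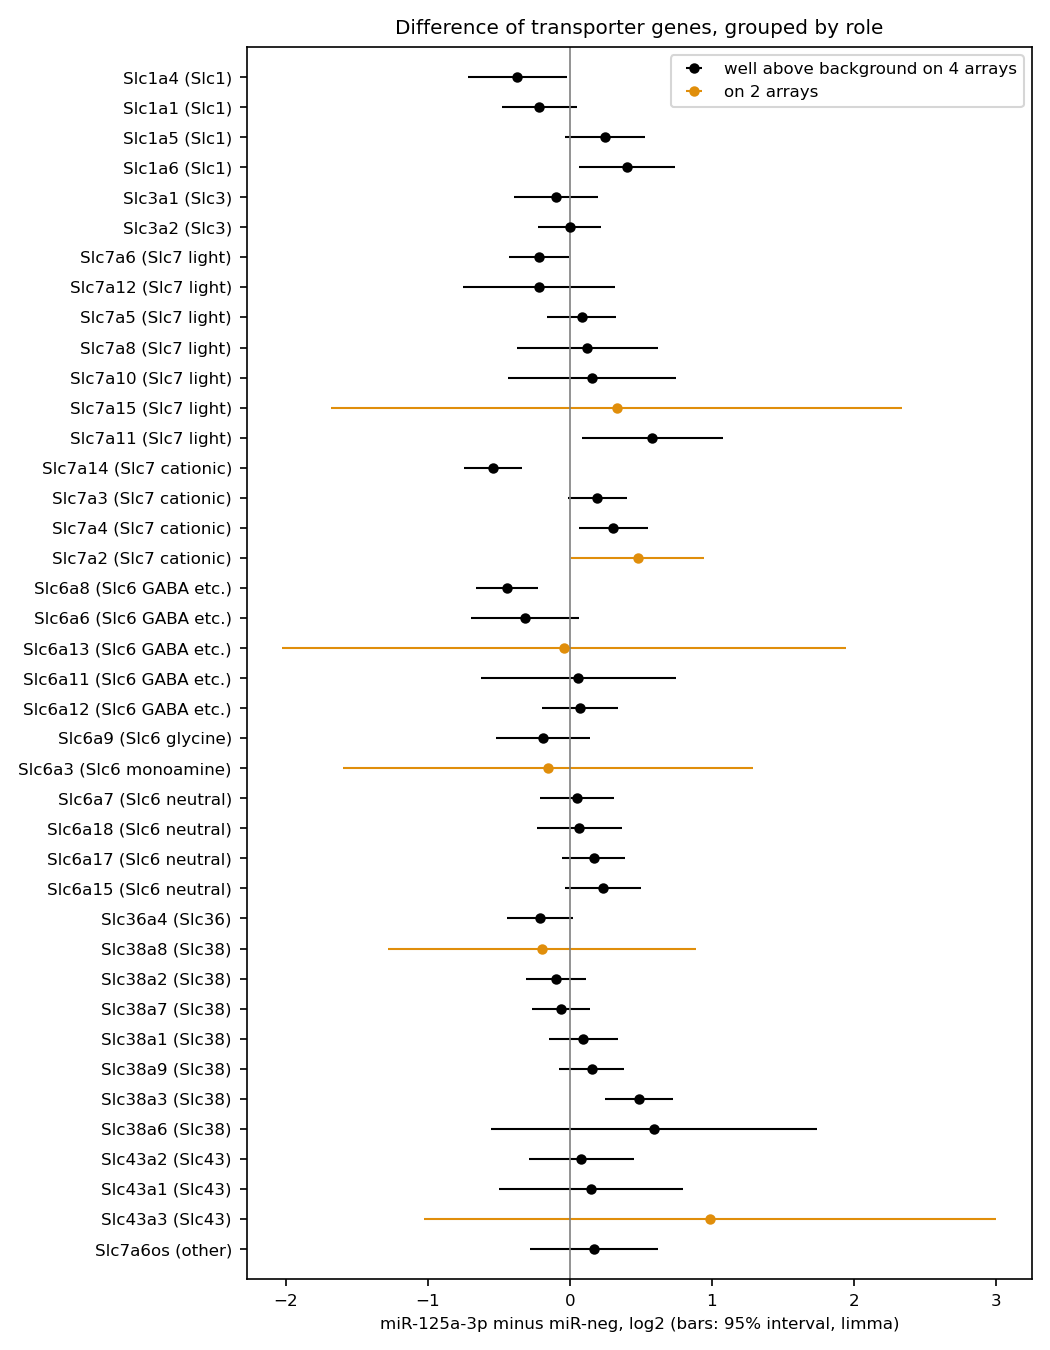
Difference between miR-125a-3p and miR-neg (x axis, log2) for the genes shown, grouped by role down the page, as points with 95% intervals from limma (n = 2 per group). Black points were well above background on 4 arrays and orange points on 2; most points lie within 0.25 of 0, Slc7a14 and Slc6a8 lie lowest among the black points, and the 4 widest intervals are orange.

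Among the glutamate and neutral amino acid transporters of the Slc1 group, 0 of 4 tested genes passed in limma, and 2 had an unadjusted p under 0.05, in opposite directions. Slc1a6, a glutamate transporter best known from cerebellar Purkinje cells, read -3.27 and -3.29 in miR-125a-3p and -3.82 and -3.54 in miR-neg, as log2 signal relative to the array's 75th percentile. Both mimic arrays lay above both controls (difference 0.40, SE 0.12, limma adjusted p = 0.209), and with normexp background correction the difference was 0.23. Slc1a4, an exchanger of serine, alanine and cysteine, went the other way, at -3.40 and -3.46 in miR-125a-3p and -2.91 and -3.20 in miR-neg (difference -0.37, SE 0.13, limma adjusted p = 0.237). Without miR-neg replicate 1 the differences were 0.26 for Slc1a6 and -0.23 for Slc1a4. Of the other members, Slc1a1, which takes up glutamate and cysteine, differed by -0.22 and the glutamine carrier Slc1a5 by 0.25. The 2 genes kept out of the group by the rule read higher on both mimic arrays, Slc1a3 by 0.32 (limma adjusted p = 0.178) and Slc1a2 by 0.05 (limma adjusted p = 0.761).

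Of the 2 heavy chains tested, 0 passed in limma, and neither had groups that stood apart. Slc3a2, which encodes CD98, the partner of most Slc7 light chains, read 2.90 and 2.96 in miR-125a-3p and 2.97 and 2.90 in miR-neg. These arrays overlapped fully, and the difference of -0.0026 had a 95% interval from -0.22 to 0.22. Slc3a1, the heavy chain of the kidney cystine transporter, read -2.36 and -2.57 in miR-125a-3p and -2.41 and -2.33 in miR-neg (difference -0.10, limma adjusted p = 0.67).

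Of the 7 light chains tested, 0 passed in limma, 1 was higher and 1 lower at an unadjusted p under 0.05. Slc7a11 encodes the light chain of the cystine-glutamate exchanger, which feeds glutathione synthesis. It read -2.73 and -3.18 in miR-125a-3p and -3.61 and -3.46 in miR-neg. The groups did not overlap, but the mimic arrays stood 0.45 apart, and the difference of 0.58 (SE 0.18) had a limma adjusted p of 0.212. Without miR-125a-3p replicate 1 it was 0.36, and with normexp 0.21. Slc7a6, a light chain that exchanges cationic for neutral amino acids, read 2.35 and 2.41 in miR-125a-3p and 2.58 and 2.62 in miR-neg (difference -0.22, SE 0.08, limma adjusted p = 0.252). The leucine exchanger light chains Slc7a5 and Slc7a8 differed by 0.08 and 0.12, and Slc7a10, which carries serine and glycine, by 0.16, all with a limma adjusted p above 0.6.

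Among the cationic amino acid transporters and their relatives, Slc7a14 had the smallest p of all 41 genes. Slc7a14, a relative of the arginine transporters that is found on lysosomes, read 2.57 and 2.58 in miR-125a-3p and 3.10 and 3.13 in miR-neg. The arrays of each group lay within 0.04 of each other, and the mimic level was 0.688 of the control level (difference -0.54, SE 0.07, 95% interval -0.75 to -0.34, limma adjusted p = 0.0758). The probe is printed on 10 spots per array, of which 8 and 7 (miR-125a-3p) and 6 and 6 (miR-neg) were free of outlier flags. These spots ran from 2.53 to 2.64 and from 2.53 to 2.62 in miR-125a-3p and from 3.06 to 3.12 and from 3.11 to 3.15 in miR-neg. The highest unflagged spot after the mimic thus lay below the lowest unflagged control spot, though leaving out flagged outliers can narrow these ranges. Spots of 1 array share their RNA and are not replicates.

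The other tested genes of that group read higher after the mimic at the probe tested, and Slc7a1 had no named probe. Slc7a4 read -1.05 and -0.92 in miR-125a-3p and -1.32 and -1.26 in miR-neg (difference 0.31, SE 0.09, limma adjusted p = 0.195), while its second probe, also well above background on 4 arrays, differed by -0.34. For the arginine transporter gene Slc7a2, the brightest probe read -4.56 and -4.91 in miR-125a-3p and -5.08 and -5.34 in miR-neg (difference 0.48, limma adjusted p = 0.251). That probe was well above background on both mimic arrays and on neither control array, so it entered the test through the group in which it was higher. A second probe, dimmer on average, was well above background on 1 mimic array and both control arrays, and differed by -0.20. Slc7a3, which also carries arginine and lysine, differed by 0.19 (limma adjusted p = 0.28).

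**Figure D2:**
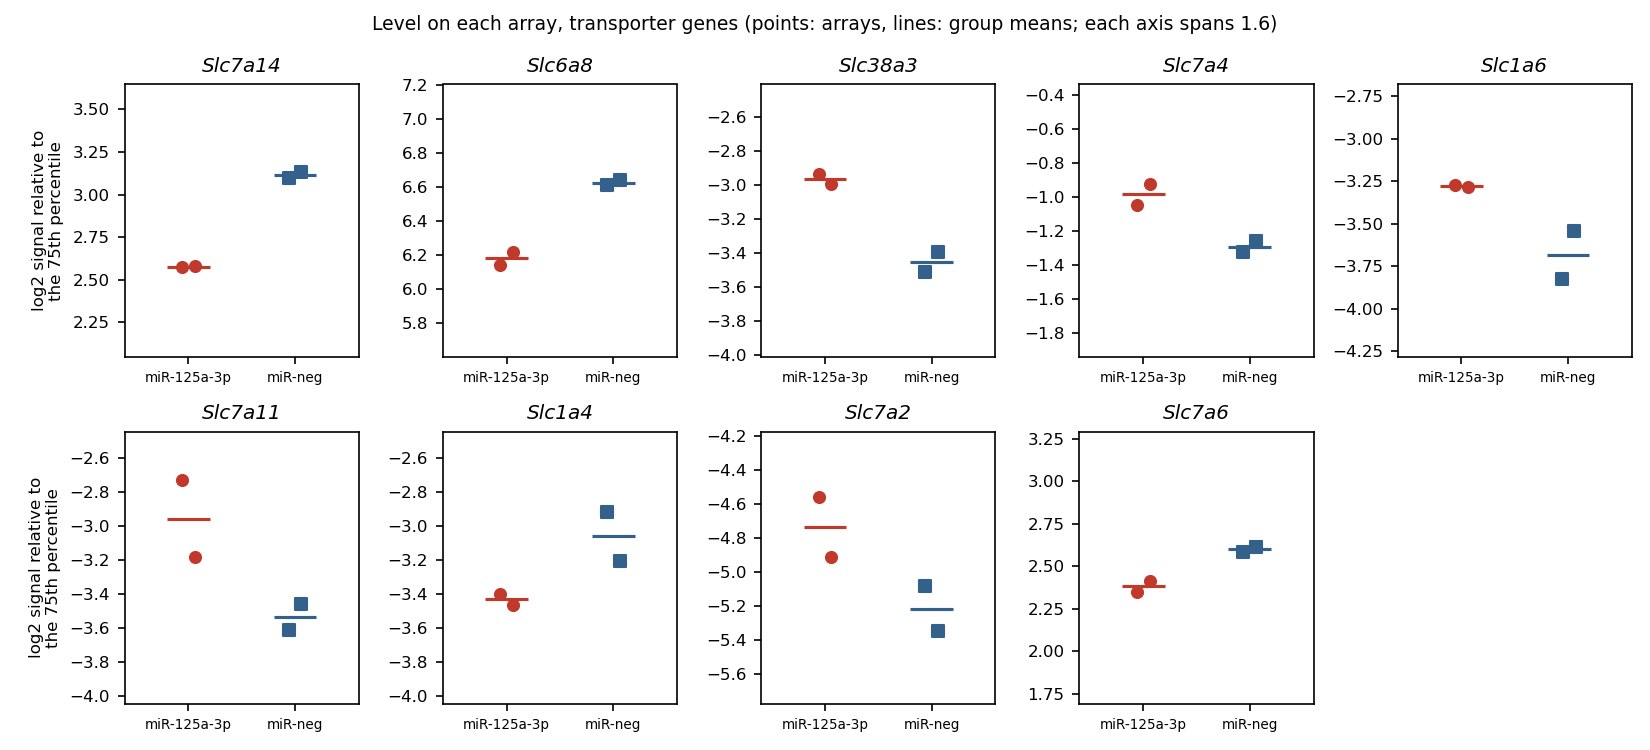
Level on each array (y axis, log2 signal relative to the 75th percentile of the array) in miR-125a-3p (red circles) and miR-neg (blue squares), with group means as lines, for genes with an unadjusted p under 0.05 in limma; each y axis spans 1.6. In every panel the groups do not overlap, and Slc7a14, Slc6a8, Slc1a4 and Slc7a6 lie lower after the mimic; the probe of Slc7a2 shown was not well above background in miR-neg.

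In the Slc6 group of GABA, betaine, taurine and creatine transporters, 0 of 6 genes passed in limma, and 2 had an unadjusted p under 0.05, among them Slc6a8. Slc6a8, the creatine transporter, read 6.14 and 6.22 in miR-125a-3p and 6.61 and 6.64 in miR-neg, or 0.735 of the control level (difference -0.45, SE 0.08, 95% interval -0.66 to -0.23, limma adjusted p = 0.102). It too is printed on 10 spots, of which 9 were free of outlier flags on miR-neg replicate 1 and 10 on each other array. These ran from 6.09 to 6.26 over both mimic arrays and from 6.43 to 6.75 over both control arrays. The taurine transporter Slc6a6 differed by -0.31 at its brightest probe and by -0.33 and -0.21 at 2 further probes, but did not pass (limma adjusted p = 0.323). The GABA and betaine carriers Slc6a12, Slc6a11 and Slc6a13 lay between -0.04 and 0.07. Slc6a13 was well above background on 1 array of each group.

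Of the 6 glycine, monoamine, proline and neutral amino acid carriers of the Slc6 group that were tested, 0 passed in limma. Slc6a9, the glycine transporter that clears glycine around glia, read -1.87 and -1.87 in miR-125a-3p and -1.55 and -1.82 in miR-neg (difference -0.19, limma adjusted p = 0.463), and its second probe differed by 0.05. The difference of Slc6a9 was -0.05 without miR-neg replicate 1 and -0.32 without miR-neg replicate 2. Slc6a3, the dopamine transporter, read -5.41 and -6.23 in miR-125a-3p and -5.04 and -6.29 in miR-neg, and was well above background on 1 array of each group. The serotonin, noradrenaline and second glycine transporter genes Slc6a4, Slc6a2 and Slc6a5 were well above background on 0 arrays. The neutral amino acid carriers Slc6a15 (difference 0.23, limma adjusted p = 0.306) and Slc6a17 (0.17, limma adjusted p = 0.353) read -2.23, -2.15 and -0.02, 0.04 in miR-125a-3p and -2.50, -2.34 and -0.19, -0.12 in miR-neg. Neither pair of groups overlapped, and without miR-neg replicate 1 the difference of Slc6a15 was 0.15. Slc6a18 and Slc6a7 differed by 0.07 and 0.05.

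Of 7 sodium-coupled neutral amino acid transporters of the Slc38 group, 0 passed in limma and 1 had an unadjusted p under 0.05. Slc38a3, through which astrocytes release glutamine, read -2.94 and -3.00 in miR-125a-3p and -3.51 and -3.40 in miR-neg (difference 0.49, SE 0.09, 95% interval 0.25 to 0.72, limma adjusted p = 0.102). Both mimic arrays lay above the controls, and with normexp the difference was 0.23. Slc38a9, a lysosomal arginine sensor upstream of mTORC1, read 0.66 and 0.66 in miR-125a-3p and 0.45 and 0.56 in miR-neg (difference 0.15, limma adjusted p = 0.394), and its second probe differed by 0.20. Without miR-neg replicate 1 the difference of Slc38a9 was 0.10. The gene of SNAT2, Slc38a2, whose transcript is known to accumulate when amino acids are short, differed by -0.10 with an interval from -0.31 to 0.11. Slc38a1, a glutamine uptake carrier, differed by 0.09 and the lysosomal Slc38a7 by -0.06. Slc38a6 differed by 0.59, but this rested on miR-125a-3p replicate 2, at -2.73, with the other mimic array at -3.91 inside the control values of -3.93 and -3.89.

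Of the 4 Slc36 and Slc43 carriers tested, 0 passed in limma. Slc36a4, a proline and tryptophan carrier, read 0.42 and 0.37 in miR-125a-3p and 0.55 and 0.66 in miR-neg (difference -0.21, limma adjusted p = 0.287), and its 2 further probes differed by 0.23 and -0.26. Slc43a3, a purine nucleobase carrier, had the largest fitted difference of the 41 genes (0.99, SE 0.73, limma adjusted p = 0.522). It read -5.18 and -5.17 in miR-125a-3p and -5.12 and -7.21 in miR-neg, where neither array was well above background, and the groups overlapped. With normexp the difference was 0.08. Without miR-neg replicate 2 it was -0.06, and without miR-neg replicate 1 it was 2.03. Slc43a1, a leucine carrier, read -4.84 and -4.62 in miR-125a-3p and -4.58 and -5.18 in miR-neg. Slc7a6os differed by 0.17.

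**Figure D3:**
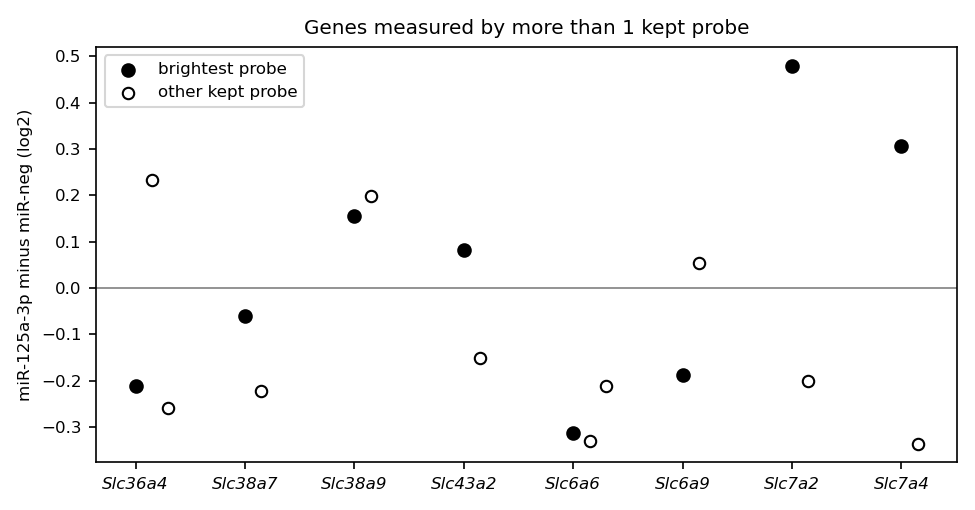
Difference between miR-125a-3p and miR-neg (y axis, log2) at the brightest probe (filled) and at the other kept probes (open) of the 8 genes that had more than 1 kept probe. The probes of Slc6a6, Slc38a7 and Slc38a9 lie on 1 side of 0, and those of Slc36a4, Slc43a2, Slc6a9, Slc7a2 and Slc7a4 lie on both sides.

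Probes of the same gene give a second reading of it that the choice of members did not use. The 8 genes with further kept probes had 10 of them, of which 5 had the sign of the brightest probe and 5 the opposite sign. Slc7a14, Slc6a8 and Slc38a3 had 1 probe each, so they had no second reading here.

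Whether Slc7a14 and Slc6a8 passed depended on the processing, and the cause was not tested. With a trend of variance on signal level 3 of the 41 genes passed, among them Slc7a14 (limma adjusted p = 0.00142) and Slc6a8 (limma adjusted p = 0.00391), against 8.84% of all features (4.39% higher and 4.45% lower), and with normexp the same 3 genes passed (limma adjusted p = 0.00347 for Slc7a14 and 0.0101 for Slc6a8), against 6.91% of all features (3.33% higher and 3.58% lower). Slc7a14 and Slc6a8 were lower after the mimic. On probes well above background on all 4 arrays 1 of 35 genes passed, Slc7a14 (limma adjusted p = 0.0437), against 2.89% of features (1.34% higher and 1.56% lower). At a looser adjusted p of 0.1 in the planned fit, Slc7a14 alone passed, against 4.25% of features. When any 1 array was left out, the difference of Slc7a14 ranged from -0.56 to -0.52 and that of Slc6a8 from -0.48 to -0.41.

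**Figure D4:**
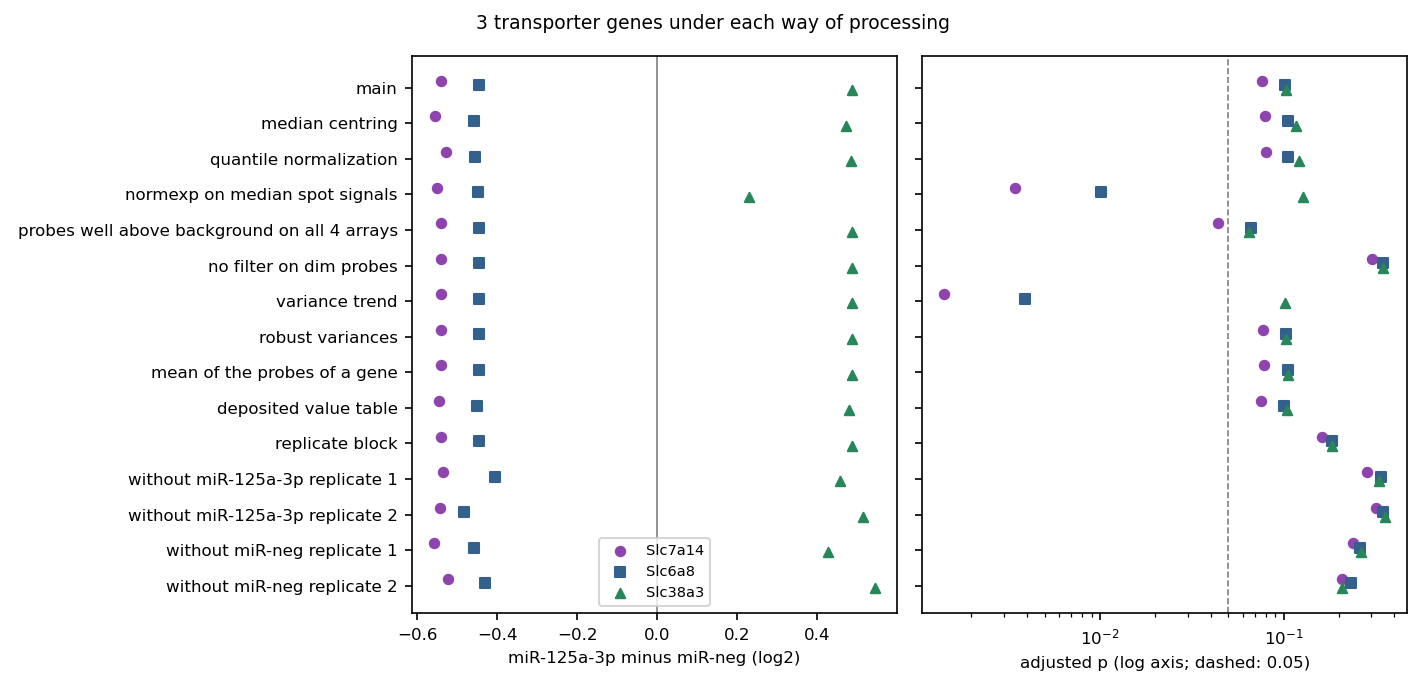
Difference (left, log2) and adjusted p (right, log axis, dashed line at 0.05) of Slc7a14, Slc6a8 and Slc38a3 under each way of processing. Each gene keeps its side of 0 throughout, Slc38a3 shrinks to 0.23 with normexp, and adjusted p-values fall below 0.05 for Slc7a14 in 3 ways of processing and for Slc6a8 in 2.

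Other genes of amino acid metabolism were read beside the transporters. Of 29 genes of the amino acid starvation response that are not transporters, 1 passed in limma, the transsulfuration gene Cth, and 28 did not (median -0.02), where 0.687% of all features passed. Cth entered the test through the mimic arrays alone and was not well above background in miR-neg, so its p-value is no support for a rise. It read -5.22 ± 0.03 in miR-125a-3p and -6.93 ± 0.19 in miR-neg (SD, n = 2 each, limma adjusted p = 0.0373). Against the dimmest detected probe of each control array the fold was 1.94. That is not a strict bound, since the Slc7a2 probe, also not well above background in miR-neg, read -5.08 on miR-neg replicate 1. Nupr1 (0.45), Pck2 (0.42) and Atf3 (-0.71), the others with the smallest p, did not pass and went both ways. Of 18 enzymes of glutamate, GABA and glycine metabolism, 0 passed and 5 had an unadjusted p under 0.05, with a median of 0.11. Among them, glutamine synthetase, Glul, read 1.03 and 0.88 in miR-125a-3p and 1.45 and 1.39 in miR-neg (difference -0.46, limma adjusted p = 0.118), and Got1, a glutamate-oxaloacetate transaminase, differed by 0.42.

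The amino acid response element was also looked for in promoters, because ATF4 binds it in genes that are transcribed more when amino acids run short. RefSeq promoter windows (GRCr8, 250 bases before to 50 after the gene start) were matched for 31 of the 41 genes. The core TGATGNAA, on either strand, was found in 2 of the 31 and in 3.82% of 27457 windows. The stretches of both genes are shown with the match in capitals, for Slc1a4 (chr14:98761760-98761812, - strand, match on the opposite strand, starting 235 bases before the gene start) and for Slc38a1 (chr7:129681506-129681573, - strand, starting 142 bases before it).
Slc1a4: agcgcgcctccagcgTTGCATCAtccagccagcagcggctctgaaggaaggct
Slc38a1: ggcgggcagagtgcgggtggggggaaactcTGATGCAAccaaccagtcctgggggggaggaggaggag
These 2 genes differed by -0.37 and 0.09 between the groups. A match is a description of the letters and no evidence of a working site.

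Genes that mark cell types were read in the same arrays, since in bulk RNA fewer cells of a type and less RNA per cell cannot be told apart. All 9 OPC markers tested were well above background on 4 arrays, and 0 passed in limma (median 0.08, summed level 359 and 378 in miR-125a-3p, 356 and 378 in miR-neg, relative to the 75th percentile). Of 10 oligodendrocyte markers, 2 fell, all 10 lay below 0 (median -0.70), and their summed level was 519 and 496 in miR-125a-3p and 769 and 793 in miR-neg. Of 16 astrocyte markers, 1 rose and 14 lay above 0 (median 0.39), with a summed level of 276 and 278 in miR-125a-3p and 244 and 261 in miR-neg; Gjb6 was well above background on 0 arrays. Of 12 microglia markers, 1 rose, 8 lay above 0 and 4 below 0 (median 0.87). Those below 0 were P2ry12 (-0.0008), Cx3cr1 (-0.06), Tmem119 (-0.10) and Cd68 (-0.28). Above 0 and well above background on 4 arrays were Aif1 (1.56), C1qa (1.44), Fcer1g (1.40), Tyrobp (1.36), C1qb (1.27), Laptm5 (0.48) and Itgam (0.09). C1qc (1.68), counted in the microglia median, entered the test through the mimic arrays alone. The summed level of the 12 was 4.85 and 5.42 in miR-125a-3p and 4.24 and 4.82 in miR-neg. Ptprc was well above background on 0 arrays. Of 8 endothelial, pericyte, meningeal and fibroblast markers, 1 rose, 7 lay above 0 and 1 below 0 (median 0.78). Pdgfrb (0.92), counted in that median, likewise entered through the mimic arrays alone. The summed level of the 8 was 4.48 and 4.77 in miR-125a-3p and 3.52 and 3.98 in miR-neg. Pecam1, Tie1, Dcn and Lum were well above background on 0 arrays. Of 12 neuron markers, 0 passed (median 0.07, summed level 28.1 and 28.5 in miR-125a-3p, 24.5 and 25.0 in miR-neg). At an unadjusted p under 0.05 in limma, 8 of the 10 oligodendrocyte markers were lower. Higher at that level were 10 astrocyte, 7 microglia and 5 endothelial-group markers, counting C1qc and Pdgfrb, and 3 neuron markers. Of the OPC markers 2 were higher and 1 lower. Over all features 10.5% were higher and 8.97% lower at that level, and 0.687% passed the adjusted threshold. The part of these cell types in the differences of Slc6a8, Slc7a14 and Slc38a3 was not tested.

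At the edge of the rule, the brightest probe of 6 genes was well above background on 2 arrays, and 5 genes reached 1 array. Just inside, Slc6a3, Slc6a13, Slc7a15 and Slc38a8 had 1 such array in each group, and the brightest probes of Slc7a2 and Slc43a3 had both in miR-125a-3p. Just outside, Slc36a1, Slc6a21 and Slc7a3l1 had 1 control array, and Slc7a7 and Slc38a5 had 1 mimic array. The other 12 genes left out were well above background on 0 arrays. The arrays had 28138 and 26902 probes well above background in miR-125a-3p and 26332 and 26822 in miR-neg, 0 spots were saturated, and all 4 arrays came from 1 slide, on which position along 1 axis followed the group, so that position and group cannot be told apart.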

How the data were processed

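The scanner values were intensities that the authors deposited from Agilent Feature Extraction 10.7.3.1 (1 colour), per the file headers, which name its processed signal. The authors also deposited a value table, on the log2 scale. On each array 100% of its values lay within 0.01 of the log2 scanner intensity less 1 number for that array, which settled scale, centring and direction. Its medians were -4.07 and -4.13 in miR-125a-3p and -4.06 and -4.14 in miR-neg.

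Control and flagged spots were left out, the spots of each probe were averaged as log2 values, and the array's own 75th percentile (702 and 717 in miR-125a-3p, 745 and 679 in miR-neg) was subtracted. Of 45598 probes, 27273 passed the filter of 2 or more arrays well above background, 21109 had a symbol, and 65 without an unflagged spot on every array were left out. The groups were compared over all 23155 features with limma 3.58.1 in R 4.3.3 (lmFit, eBayes, two-sided, Benjamini-Hochberg), checked on simulated arrays. An exact permutation test of 2 against 2 cannot go below p = 0.333. Where 1 group had no array well above background, the fold is taken against the dim probe or the dimmest detected probe of that array, whichever is brighter. Undetected probes can read above the dimmest detected probe, so this fold is not a strict bound.

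Values by array are given for genes that passed, that had an unadjusted p under 0.05, groups apart and a difference of at least 0.5, or that had 1 of the 2 smallest p-values of their role list. Other members are given by their differences, and 1 member that the rule describes is not reported here. The members and lists were chosen with earlier results of these data known. Alternatives were median centring, quantile normalization, normexp on median spot signals (offset 50, chosen after the files were seen, as they hold no mean spot signal), filters, variance models, the mean of probes, the deposited table, a replicate block and leaving out each array. The replicate block also stands for the slide position shared by same-numbered arrays, whose deviations from their group means correlated at 0.0505; 2 pairs are too few to settle pairing.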

Additional observations from a re-analysis of the deposited data

Results flagged for a closer look

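Genes left out of the comparison were searched for signal after the mimic alone. Slc7a7, a light chain for cationic amino acids, was well above background on miR-125a-3p replicate 1 alone, at -4.87 (log2 relative to the 75th percentile), against -7.70 on the other mimic array and -7.51 and -7.70 in miR-neg. Slc38a5, a glutamine carrier, was well above background on the same array alone, at -5.00, against -5.98 on the other mimic array and -6.92 and -6.00 in miR-neg. Both rest on 1 spot of 1 array. Such readings were not particular to the mimic, since Slc36a1, Slc6a21 and Slc7a3l1 were well above background on 1 control array alone. Slc6a21 read -3.66 and -6.05 in miR-neg and -7.20 and -6.15 in miR-125a-3p.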

How the results depend on the processing

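The 159 features that passed became 984 at a threshold of 0.1, 83 (37 higher, 46 lower, against 88 and 71) under quantile normalization, 1601 with normexp, 613 on probes well above background on all 4 arrays, 2048 with a variance trend and 0 without the filter on dim probes, where 3956 had an unadjusted p under 0.05 in limma. The count of transporter genes, 0, became 1 at the threshold of 0.1, 3 with normexp, 3 with a variance trend and 1 when each probe had to be well above background everywhere. With the replicate block, 0 features and 0 transporter genes passed, with 3968 and 10 at an unadjusted p under 0.05 in limma and a smallest adjusted p among the transporters of 0.163. With 1 array left out, features ranged from 0 to 0 and transporters from 0 to 0, with 2748 to 4116 features at an unadjusted p under 0.05 in limma; these fits take the spread of the single array from the other group. The median over the transporters ranged from 0.03 to 0.13 there. Of 264 values of the 19 genes described by array, 247 kept direction and side of the threshold, 7 passed newly (among them Slc7a14 at -0.55 with normexp and -0.54 and -0.54, Slc6a8 at -0.45 and -0.45) and 10 changed sign. These were Slc3a2 at 0.0112 under quantile normalization, Slc43a1 at -0.0089 with normexp, Slc7a4 at -0.0145 as the mean of its probes, and, with 1 array left out, Slc3a1 (-0.20 to 0.0083), Slc3a2 (-0.0382 to 0.0330), Slc43a1 (-0.15 to 0.45), Slc43a3 (-0.0557 to 2.03) and Slc6a3 (-0.78 to 0.47). Except where fewer arrays or features entered, the cause was not tested. Normexp on mean spot signals could not be run. Dim probes limit Slc6a3, Slc6a13, Slc7a15, Slc38a8 and Slc43a3 most.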

Other observations

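Other carriers and the machinery that senses amino acids were also read. Of 21 genes of amino acid sensing by mTORC1, 0 passed in limma and 4 had an unadjusted p under 0.05 (median -0.06). Fnip2, a partner of folliculin, read 1.66 and 1.56 in miR-125a-3p and 2.26 and 2.23 in miR-neg (difference -0.63, SE 0.08, limma adjusted p = 0.0705). Tfeb, a transcription factor of lysosomal genes, differed by -0.44 and Castor2, related to an arginine sensor, by 0.31. Of 11 other amino acid carriers, 0 passed and 1 had an unadjusted p under 0.05 in limma (median -0.06), the mitochondrial carrier Slc25a39 (0.28). Of 4 vesicular transmitter transporters tested, 0 passed and 2 had an unadjusted p under 0.05 in limma, the monoamine carriers Slc18a2 (0.27) and Slc18a1 (0.36).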
